A study of Homo sapiens with 2 samples.

Results

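Gene desert peaks were the CUT&Tag peaks that lay far from any protein-coding gene, with the midpoint outside every protein-coding gene body and more than 200 kb from the nearest protein-coding transcription start site (TSS). They made up 22203 of the 173296 peaks of the TRPS1-WT list on chromosomes 1 to 22 and X (12.8%, 95% Wilson interval 12.7 to 13.0) and 48263 of the 325557 peaks of the TRPS1-MT list (14.8%, 14.7 to 14.9). Both lists come from HCT116, a human colorectal carcinoma cell line of epithelial type, in which Flag-tagged TRPS1 was expressed ectopically from a stably integrated lentivirus under puromycin selection. One culture carried wild-type TRPS1 (TRPS1-WT) and the other the R544Q mutant (TRPS1-MT), and both were profiled with the same antibody against Flag. In CUT&Tag that antibody directs a Tn5 transposase to chromatin, and the cut fragments are sequenced. There was 1 library per condition and no library of empty-vector cells was used here, so values compare these libraries and not the genotypes, and no test between them was possible. All intervals are at the 95% level, cover counting error only and treat peaks as independent.

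Gene deserts are long stretches of chromosome without protein-coding genes. Many flank genes of development, and some hold enhancers that act on a promoter at a great distance, or genes for long noncoding RNAs (lncRNAs). TRPS1 is an atypical GATA-type zinc finger protein that binds GATA sequences and is known as a transcriptional repressor, and AP-1, the dimer of FOS and JUN proteins, is a common occupant of distal enhancers in epithelial cancer cells.

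The summits of 5 of the 10 strongest gene desert peaks found in both lists, ranked by −log10 p in the TRPS1-WT list, are shown first, because their tag counts are among the largest of the deserts, together with the strongest peak of each list alone. Each window reaches 100 bp on both sides of the summit on the plus strand of hg19, and is named after the nearest protein-coding gene. Capitals mark AP-1 matches (TGACTCA or TGAGTCA), matches to the GATA sequence (AGATAA or AGATAG or TGATAA or TGATAG) and TEAD matches (GGAATG) on either strand. The windows of 3 others of the 10, which are the strongest peak of all and those near LYPLAL1 and RBMS3, held none of these 3 sequences.
USP24 desert, both lists, chr1:55894881-55895081: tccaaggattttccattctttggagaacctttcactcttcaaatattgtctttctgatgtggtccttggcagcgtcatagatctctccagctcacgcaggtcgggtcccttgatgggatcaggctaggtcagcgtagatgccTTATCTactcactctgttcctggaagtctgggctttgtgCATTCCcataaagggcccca
ACTBL2 desert, both lists, chr5:57119973-57120173: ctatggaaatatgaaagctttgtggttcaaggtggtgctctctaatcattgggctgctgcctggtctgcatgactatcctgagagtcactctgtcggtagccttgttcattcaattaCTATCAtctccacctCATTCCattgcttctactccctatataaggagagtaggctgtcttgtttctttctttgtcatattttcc
DPPA4 desert, both lists, chr3:109646149-109646349: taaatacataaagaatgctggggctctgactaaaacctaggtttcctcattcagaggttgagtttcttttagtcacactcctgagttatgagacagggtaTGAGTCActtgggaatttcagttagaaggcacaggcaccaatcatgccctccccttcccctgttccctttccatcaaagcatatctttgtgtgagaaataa
SOX2 desert, both lists, chr3:181930541-181930741: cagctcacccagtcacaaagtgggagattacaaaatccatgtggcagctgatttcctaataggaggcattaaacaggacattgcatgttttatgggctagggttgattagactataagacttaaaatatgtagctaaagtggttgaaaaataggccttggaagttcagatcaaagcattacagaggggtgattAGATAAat
DDHD1 desert, both lists, chr14:53925189-53925389: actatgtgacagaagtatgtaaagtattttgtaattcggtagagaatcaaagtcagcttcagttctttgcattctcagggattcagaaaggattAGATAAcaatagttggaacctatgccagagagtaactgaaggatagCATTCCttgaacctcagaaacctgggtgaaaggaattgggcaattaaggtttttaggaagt
CYLC2 desert, TRPS1-WT list alone, chr9:105218993-105219193: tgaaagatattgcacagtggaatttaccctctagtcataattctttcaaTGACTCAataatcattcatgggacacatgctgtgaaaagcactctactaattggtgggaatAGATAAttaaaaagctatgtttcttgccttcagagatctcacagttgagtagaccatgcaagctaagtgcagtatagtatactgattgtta
LRRC4C desert, TRPS1-MT list alone, chr11:41900929-41901129: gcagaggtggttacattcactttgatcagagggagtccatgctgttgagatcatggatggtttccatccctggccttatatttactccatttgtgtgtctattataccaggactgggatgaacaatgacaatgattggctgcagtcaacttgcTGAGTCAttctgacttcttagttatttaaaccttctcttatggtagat

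The DPPA4 window has its AP-1 match starting at the summit base itself. In the DDHD1 window a GATA match starts 6 bp before the summit. The windows of the peaks found in 1 list also hold AP-1 matches, 51 bp before the TRPS1-WT summit at CYLC2 and 53 bp after the TRPS1-MT summit at LRRC4C. How common these matches are at gene desert peaks in general is given below.

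Peaks were thinner on the ground in gene deserts than elsewhere, in both libraries. Deserts made up 580.4 Mb of the 2836 Mb of sequence without gaps (20.5%). The TRPS1-WT list held 38.3 peaks per Mb of desert and 67.0 per Mb outside, a ratio of 0.571, and the TRPS1-MT list held 83.2 and 123, a ratio of 0.676. Members of the TRPS1-WT list covered 0.776% of desert sequence and its other peaks 1.65% of the rest, and for the TRPS1-MT list the covered shares were 2.54% and 4.09%. Among the strongest 1% of peaks by −log10 p, 108 of 1732 (6.24%) of the TRPS1-WT list and 224 of 3255 (6.88%) of the TRPS1-MT list were desert peaks, lower shares than over the whole lists. How many reads were sequenced is not stated in the lists. The lowest background pileup at a peak was 1.104 tags in TRPS1-WT cells against 1.77 in TRPS1-MT cells, and 81.0% and 81.5% of the members stood on that floor.

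Gene desert peaks were found in both lists less often than other peaks. Of the TRPS1-WT members 4095 (18.4%, 17.9 to 18.96) overlapped a TRPS1-MT peak by at least 1 bp, where 30.4% of all TRPS1-WT peaks did, and 4018 TRPS1-MT members (8.33%, 8.08 to 8.58) overlapped a TRPS1-WT peak, where 15.8% of all TRPS1-MT peaks did. Other distal peaks, which lay over 5 kb from any annotated TSS and outside deserts, were shared at 27.02% and 13.9%. The difference between desert and other distal peaks was −8.58 percentage points in the TRPS1-WT list (Newcombe interval −9.16 to −7.99) and −5.55 points in the TRPS1-MT list (−5.84 to −5.25). The list to be overlapped was itself less dense in deserts than outside, with 83.2 against 123 TRPS1-MT peaks per Mb and 38.3 against 67.0 TRPS1-WT peaks per Mb. How much of the overlap, and of these differences, peak density alone would give was not tested.

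Within the deserts, the share found in both lists was lower the farther the peaks lay from a gene. Of the TRPS1-WT members at 200 to 300 kb from a TSS, 21.2% (20.2 to 22.2) were in both lists, and the share was 18.5% at 300 to 500 kb, 16.9% at 500 to 1000 kb and 15.2% (13.9 to 16.8) beyond 1000 kb. The nearest bin was 5.93 points above the farthest (4.12 to 7.66). TRPS1-MT members went from 10.2% (9.68 to 10.7) through 8.56% and 7.37% to 6.05% (5.46 to 6.70), a difference of 4.15 points (3.32 to 4.94). The median summit held 12 tags in each of these TRPS1-WT bins and 15 or 16 tags in the TRPS1-MT bins. On either side of the 200 kb limit, intergenic peaks at 150 to 200 kb were shared at 23.7% and 11.7%, and those at 200 to 250 kb at 21.95% and 10.7%. The median member lay 421 kb from a protein-coding TSS in the TRPS1-WT list and 440.3 kb in the TRPS1-MT list.

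**Figure D1:**
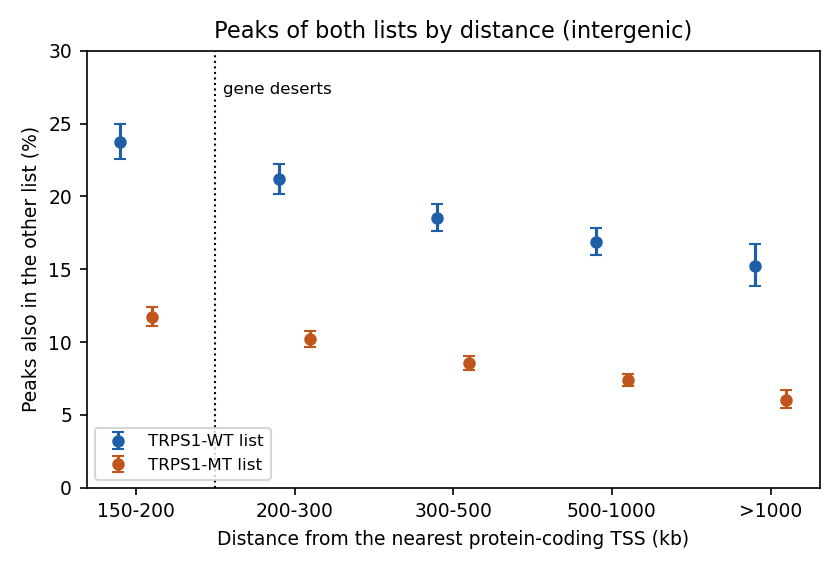
Percent of intergenic peaks that overlap a peak of the other list (y axis) by distance from the nearest protein-coding TSS in kb (x axis), with 95% Wilson intervals as bars and 1 set of points for each list. The bins right of the dotted line are gene deserts, and the percentages go down from 21.2 to 15.2 in the TRPS1-WT list and from 10.2 to 6.05 in the TRPS1-MT list.

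Desert peaks of both lists were stronger than those of 1 list. The number of tags piled up at a summit, recovered from the fold and −log10 p of the peak caller, had a median of 20 at TRPS1-WT members in both lists (quartiles 13 and 44) and of 11 at members of the TRPS1-WT list alone (10 and 14). In TRPS1-MT cells the medians were 28 (17 and 61.8) and 15 (12 and 20). A total of 478 TRPS1-WT members in both lists reached 100 tags, and 5 of the TRPS1-WT list alone did. The corresponding TRPS1-MT counts were 636 and 31. The weakest members of any class had 9 tags in TRPS1-WT cells against 10 in TRPS1-MT cells. Other distal peaks in both lists were stronger than desert ones, with medians of 27 and 36 tags.

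Among peaks of like strength, a comparison added after the data had been seen, the gap between desert and other distal peaks was smaller in every bin of the TRPS1-WT list. With summit tags of 12 to 19, 14.8% of TRPS1-WT members and 17.7% of other distal peaks were in both lists, a difference of −2.88 points (−3.73 to −2.01). With 20 to 39 tags it was −1.45 points (−3.65 to 0.774), and with at least 100 tags 98.96% of the members and 97.8% of the others were shared (1.16 points, −0.265 to 1.95). In TRPS1-MT cells a lower share stayed in every bin, with −4.09 points (−4.68 to −3.48) at 20 to 39 tags, −5.78 points (−8.39 to −3.18) at 40 to 99 tags and −2.09 points (−4.00 to −0.655) at 100 tags or more.

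At desert peaks found in both lists, the TRPS1-MT library had more tags than the TRPS1-WT library to the same degree as elsewhere. After each TRPS1-MT peak was matched with 1 TRPS1-WT peak there were 3972 pairs, and the tag count in TRPS1-MT cells divided by that in TRPS1-WT cells had a median of 1.31 (1.29 to 1.33), as it was over all 50504 pairs of the lists (1.31). Relative to that ratio, TRPS1-MT tags were over 2-fold higher at 441 desert pairs (11.1%, 10.2 to 12.1, against 9.92% of all pairs) and over 2-fold lower at 438 (11.03%, 10.1 to 12.04, against 10.1% of all pairs). The desert share minus that of other distal pairs was 1.02 points for higher tags (0.00521 to 2.10) and 0.000543 points for lower tags (−1.02 to 1.08). The libraries were not scaled to each other, so only departures from the common ratio can be read.

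**Figure D2:**
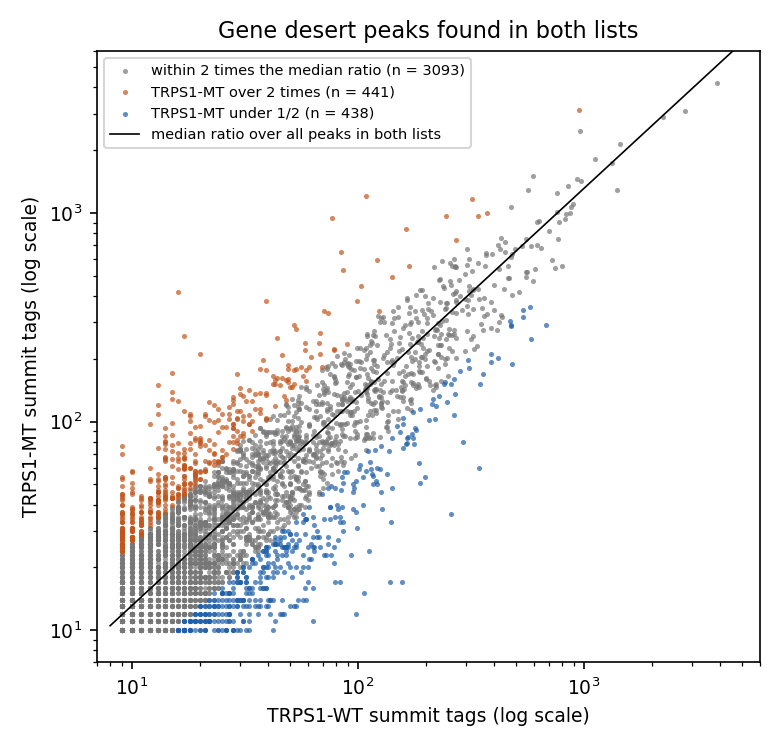
Summit tags in TRPS1-MT cells (y axis, log scale) against TRPS1-WT cells (x axis, log scale) at the 3972 gene desert peaks of both lists. The line is the median ratio of 1.31 over all peaks of both lists. The 441 orange points lie over 2-fold above it and the 438 blue points over 2-fold below it.

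Desert peaks with at least 100 tags were nearly all in both lists (478 of 483 in the TRPS1-WT list and 636 of 667 in the TRPS1-MT list). Both peaks with the most TRPS1-WT tags lay beside TRIB1 on 8q24, inside the lncRNA gene LINC02964, at 126691989 to 126693025 (3878 tags in TRPS1-WT cells against 4224 in TRPS1-MT cells) and at 126667725 to 126668475 (2805 and 3082). Next came the peak in the desert beside USP24, a deubiquitinase gene, at chr1:55894631-55895458, with 2241 tags in TRPS1-WT cells against 2897 in TRPS1-MT cells. It lay 214 kb from the USP24 TSS and in the body of the lncRNA gene ENSG00000234810. The desert nearest to LYPLAL1, a lysophospholipase-like gene, had a peak at chr1:218996580-218997310 with 1451 and 2150 tags. At these 4 peaks the TRPS1-MT over TRPS1-WT tag ratio was 0.830 to 1.13 times the common one.

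Over all 10 strongest peaks, of which 1 is not described here, the TRPS1-MT over TRPS1-WT tag ratio was 0.699 to 2.49 times the common one, and 1 of the 10 had fewer TRPS1-MT than TRPS1-WT tags. The peak nearest to RBMS3, which encodes an RNA-binding protein, had 1115 tags in TRPS1-WT cells against 1806 in TRPS1-MT cells (chr3:30323615-30324338). At ACTBL2, an actin-like gene, the peak chr5:57119784-57121359 had 1325 and 1733 tags. The DPPA4 peak, at chr3:109645917-109646464 near a gene known from pluripotent cells, had 928 and 1459 tags. Across these 3 the TRPS1-MT to TRPS1-WT ratio stayed between 0.997 and 1.23 times the common one.

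The highest ratios among the 10 were at SOX2 and DDHD1. SOX2 encodes a transcription factor of pluripotent, neural and foregut cells, and the peak 500.9 kb from its TSS (chr3:181930265-181930887) had 955 tags in TRPS1-WT cells against 3126 in TRPS1-MT cells, 2.49 times the common ratio. The peak nearest to DDHD1, a phospholipase gene, had 959 and 2473 tags (chr14:53924914-53925606), 1.96 times the common ratio. None of the 10 strongest lay within 100 kb of an assembly gap.

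The SOX2 desert shows how the classes are arranged along 1 stretch. Between SOX2 and ATP11B the desert spans 0.682 Mb and begins 200 kb downstream of the SOX2 TSS. The TRPS1-WT list had 18 peaks there that were in both lists and 36 of its own, and the TRPS1-MT list had 17 and 96. Peaks of both lists with more than 20 TRPS1-WT tags lay between 471 and 709.6 kb from the TSS. After the 955 tags of the strongest, the next had 168 tags in TRPS1-WT cells, at 471 kb, where the TRPS1-MT library had 331.

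Peaks of 1 list were weaker even at the top of their ranking by −log10 p, and their highest tag counts at any rank were 193 in the TRPS1-WT list and 401 in the TRPS1-MT list. In the TRPS1-WT list alone, the strongest lay in the desert nearest to CYLC2, a gene of the sperm head, at chr9:105218850-105219240 with 81 tags. Those that followed were near ACTBL2 (chr5:57172612-57172891, 72 tags), near CITED2, which encodes a transcriptional coregulator (chr6:140783885-140784336, 75 tags), near the utrophin gene UTRN (chr6:145416175-145416581, 77 tags) and near N4BP1 (chr16:48896028-48896419, 67 tags). Each ranked above 94.1% to 96.1% of the peaks of the whole TRPS1-WT list.

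In the TRPS1-MT list alone the strongest peak was nearest to LRRC4C, which encodes a synaptic adhesion protein, at chr11:41900624-41901267 with 242 tags. The peak nearest to CADM2, a cell adhesion gene, had 225 tags (chr3:83983398-83984244), and the one nearest to IRX1, an Iroquois homeobox gene, had 238 (chr5:3310594-3311574). The peaks nearest to SLIT2, a secreted guidance factor, and to ZNF516 had 167 and 131 tags (chr4:19740744-19741191 and chr18:73776932-73777445). They ranked above 98.3% to 99.2% of the TRPS1-MT list. Leaving out members within 100 kb of an assembly gap gave the same regions in all 3 rankings.

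Among peaks of both lists, those farthest from the common ratio were looked up after their values had been seen, among pairs with at least 200 tags in 1 library. Beside PCSK2, a prohormone convertase gene, chr20:17005086-17005562 had 108 tags in TRPS1-WT cells against 1209 in TRPS1-MT cells, 8.53 times the common ratio. A peak inside the lncRNA gene HULC, nearest to SLC35B3, had 20 and 210 tags. The pair with the highest value lay 436 kb from the nearest TSS of the TRPS1 gene itself, with 16 tags in TRPS1-WT cells against 419 in TRPS1-MT cells (19.95 times).

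In the other direction, chr12:126536138-126536839 nearest to TMEM132B had 259 tags in TRPS1-WT cells against 36 in TRPS1-MT cells, 0.106 times the common ratio. Beside KLF4, a transcription factor of differentiated gut epithelium, chr9:110517372-110517967 had 584 and 249 tags (0.325 times). Each of these is 1 value from 1 library on each side.

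AP-1 was the sequence most concentrated at summits of desert peaks found in both lists, among the 10 of 13 consensus sequences with at least 20 matches in the flanks of TRPS1-WT members in both lists. It was present within 100 bp of the summit at 21.6% of the 4095 TRPS1-WT members in both lists and in 3.31% of equally wide flanking windows with their centre 1000 bp off, a ratio of 6.54 (5.74 to 7.45). At members of the TRPS1-WT list alone it was present at 5.30%, against 3.19% in the flanks (1.66, 1.53 to 1.81). TRPS1-MT summits gave 17.0% at members in both lists (ratio 5.58, 4.84 to 6.42) and 4.15% at those of the TRPS1-MT list alone (1.29, 1.22 to 1.37). The difference between the classes was 16.3 points in the TRPS1-WT list (15.1 to 17.7). Desert peaks carried AP-1 slightly less often than other distal peaks of both lists, with a difference of −1.46 points at TRPS1-WT summits (−2.80 to −0.0775) and −0.997 points at TRPS1-MT summits (−2.23 to 0.286).

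**Figure D3:**
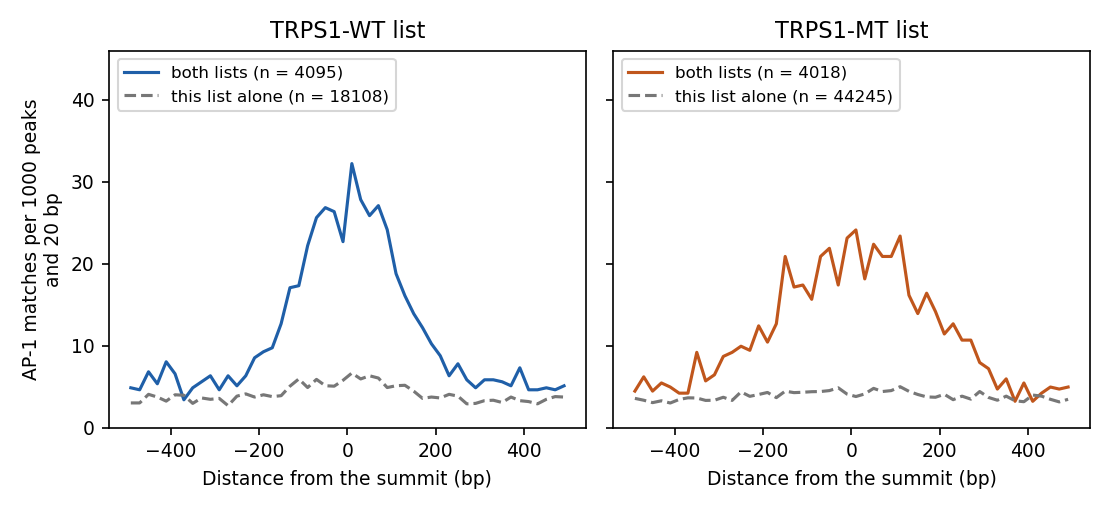
AP-1 matches per 1000 peaks and 20 bp (y axis) by distance from the summit in bp (x axis) at gene desert peaks of the TRPS1-WT (left) and TRPS1-MT (right) lists, for peaks of both lists (solid) and of 1 list (dashed). Next to the summit, at 0 to 20 bp, the solid lines stand at 32.2 and 24.1 matches, and the dashed lines at 6.68 and 3.82. The TRPS1-MT dashed line is not highest there, with 5.02 at 100 to 120 bp.

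The AP-1 share was higher where more tags were piled up. Among TRPS1-WT members in both lists it was 5.56% (4.11 to 7.49) with up to 11 tags, 12.7% with 12 to 19, 22.5% with 20 to 39, 37.8% with 40 to 99 and 44.8% (40.4 to 49.3) with at least 100. The GATA share was 47.6% (43.9 to 51.2) with up to 11 tags, 49.6% with 12 to 19 and 33.7% (29.6 to 38.0) with at least 100, and TEAD went from 12.7% (10.4 to 15.3) to 26.4% (22.6 to 30.5). In a comparison within bins, added after the data had been seen, AP-1 was more frequent at members in both lists than at those of 1 list with 12 to 99 tags, for example by 9.33 points (6.14 to 12.6) at TRPS1-WT summits and by 9.04 points (7.20 to 11.1) at TRPS1-MT summits with 20 to 39 tags. At TRPS1-WT summits with up to 11 tags the interval of the difference included 0 (1.48 points, −0.0249 to 3.44), and with at least 100 tags too few members of 1 list, 5 and 31, were left to compare.

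The GATA sequence, which TRPS1 binds, was common at desert summits and nearly as common beside them. It was present at 43.2% of TRPS1-WT members in both lists and in 41.4% of their flanks (ratio 1.05, 1.00 to 1.09), and at 48.5% of members of the TRPS1-WT list alone, against 43.3% of the flanks (1.12, 1.098 to 1.14). At TRPS1-MT summits the ratios were 1.05 (1.006 to 1.097) and 1.08 (1.06 to 1.09). Members of both lists had it less often than those of the TRPS1-WT list alone, with a difference of −5.28 points (−6.96 to −3.59). Within bins of summit tags, added after the data had been seen, this was not uniform. At TRPS1-WT summits the difference was 0.00849 points (−3.75 to 3.79) with up to 11 tags, −0.139 points (−3.16 to 2.88) with 12 to 19 and −7.02 points (−11.1 to −2.86) with 20 to 39. At TRPS1-MT summits with up to 11 tags members of both lists had GATA more often, by 7.12 points (1.503 to 12.7), and with 40 to 99 tags the difference was −7.72 points (−12.5 to −2.86). Desert summits had it more often than other distal summits in both lists (36.9%), with a difference of 6.29 points (4.66 to 7.92), and their flanks did too (41.4% against 33.7%).

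Of the other sequences, at TRPS1-WT summits of members in both lists, RUNX (TGTGGTT) had a ratio of 1.68 (1.43 to 1.97), TEAD of 1.57 (1.43 to 1.72) and ETS (AGGAAGT or CGGAAGT) of 1.396 (1.19 to 1.64). The E-box CAGGTA or CAGGTG, bound by ZEB and SNAI factors, was at 1.12 (1.04 to 1.21). CDX, an intestinal homeobox factor (TTTATGG or TTTATTG), lay below its flanks at 0.789 (0.703 to 0.886). The intervals of FOX (TGTTTAC) at 1.06 (0.881 to 1.28), TCF/LEF at 0.938 (0.866 to 1.02) and NF-kB at 0.942 (0.725 to 1.22) included 1, though at TRPS1-MT summits NF-kB was at 1.31 (1.02 to 1.68). CTCF, the insulator protein, had a match at 0.733% of summits and in 0.0855% of flanks (30 and 7 windows). With so few flank matches it was left out of the ranking that AP-1 led. Its ratio of 8.57 (3.77 to 19.5) was above that of AP-1. HNF4 and SP/KLF had fewer than 20 flank matches as well, and no ratio is given for either. In other distal peaks of both lists CTCF was present at 1.24%, a difference of −0.505 points (−0.767 to −0.168), and at TRPS1-MT summits the difference was −0.280 points (−0.496 to 0.0140).

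Base composition moved with the classes. The 201 bp summit windows had a median GC content of 41.8% at TRPS1-WT members in both lists, 38.8% at those of 1 list and 37.3% in flanks of the former, and other distal peaks of both lists had 45.3%. The part of GC content in the sequence counts was not tested.

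Desert pairs in which TRPS1-WT tags were relatively high had AP-1 more often, but their TRPS1-WT summits were also stronger. The median was 39.5 TRPS1-WT tags in pairs with lower TRPS1-MT tags and 15 in pairs with higher ones. AP-1 was more frequent at stronger TRPS1-WT summits among members in both lists, as given above. The part of TRPS1-WT summit strength in the differences that follow was not tested. Bins of the mean tags of both libraries, given below, do not make these summits alike. At the same mean, lower TRPS1-MT tags go with higher TRPS1-WT tags. Within 100 bp of summits of the TRPS1-WT peak, AP-1 was found in 30.4% of the 438 pairs with lower TRPS1-MT tags and in 19.7% of the 441 pairs with higher ones, a difference of −10.6 points (−16.3 to −4.92). TCF/LEF, that is CTTTG followed by A or T at 2 positions, had the opposite difference, 23.4% at pairs with higher TRPS1-MT tags and 14.4% at pairs with lower ones (8.97 points, 3.81 to 14.1). Both depended on which summit was used: at TRPS1-MT summits, checked after the data had been seen, the differences were −3.33 points (−8.67 to 2.04) and 3.73 points (−1.63 to 9.06). These 2 kept their direction at either summit. CDX was more frequent at pairs with higher TRPS1-MT tags at TRPS1-WT summits (5.16 points, 1.05 to 9.30), and at TRPS1-MT summits its difference turned to −1.66 points (−5.62 to 2.28).

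The nearest-gene list covered 40 regulators of development known to lie beside gene deserts, of which 35 had a desert peak nearest to them and 27 a peak of both lists. Of the TRPS1-WT members nearest to a listed gene 24.6% were in both lists and of the other members 18.2%, and in the TRPS1-MT list the shares were 11.98% and 8.18%. SOX9, a transcription factor of intestinal crypts and cartilage, had the most, with 88 TRPS1-WT members of which 32 were in both lists. The strongest peak of a listed gene is here the peak of both lists that ranked first in the TRPS1-WT list, which need not be the strongest in the TRPS1-MT list. That of SOX9 lay 697 kb from the TSS at chr17:69420151-69420878, with 623 tags in TRPS1-WT cells against 699 in TRPS1-MT cells. KLF5, a factor of proliferating crypt cells, had 11 of 22 in both lists, the strongest with 648 and 679 tags (chr13:73995356-73996088).

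The nuclear receptor genes NR2F1 and NR2F2 had 21 of 72 and 12 of 66 members in both lists. The strongest NR2F1 peak had 973 and 1431 tags, and the strongest NR2F2 peak had 47 in TRPS1-WT cells against 12 in TRPS1-MT cells. A peak of the TRPS1-MT list alone nearest to NR2F2 had 51 tags. Near MYC, the oncogene of Wnt-driven growth, 25 of 68 were in both lists, and near TRPS1 12 of 50. EPHA4, an ephrin receptor gene, had 14 of 44, TBX3 9 of 36, DACH1 8 of 32, SOX2 8 of 33 and BMP4 6 of 17. At DACH1, a corepressor gene, the strongest peak had 321 and 1167 tags.

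Listed genes with desert peaks but none in both lists included the Iroquois genes IRX1 and IRX3, the ligand gene BMP2, and MEIS1, PROX1, SALL1 and TBX5. TRPS1-WT and TRPS1-MT members numbered 6 and 14 at IRX3, 8 and 27 at BMP2, 16 and 37 at MEIS1, 4 and 13 at PROX1, 0 and 1 at SALL1 and 1 and 0 at TBX5. Over all desert members 18.4% and 8.33% were in both lists, so with few members a count of 0 says little about a gene. IRX1 had 14 TRPS1-WT and 49 TRPS1-MT members, one of the latter among the strongest of the TRPS1-MT list alone (238 tags). Nearness says nothing about which gene, if any, a region acts on.

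The 941 desert stretches with sequence differed widely in length and in how many peaks of both lists they held. Of them 620 reached 200 kb and 191 reached 1 Mb, and the counts in this paragraph are not scaled to length. A total of 673 held at least 1 peak of both lists and the 113 richest together held 50% of these peaks. The desert between STIM2 and PCDH7 on chromosome 4 had the most, 41 in 3.30 Mb, followed by that between CITED2 and NMBR on chromosome 6 (40 in 2.30 Mb), NUDT12 and EFNA5 on chromosome 5 (39 in 3.43 Mb) and PCDH7 and ARAP2 on chromosome 4 (38 in 4.68 Mb). Tied at 35 were those between AGA and TENM3, CTNNA2 and SUCLG1, and MYC and GSDMC. Peaks of 1 list were most numerous in the PCDH7 to ARAP2 desert (549), then AGA to TENM3 (542), CTNNA2 to SUCLG1 (469), OTOL1 to SI (444) and NUDT12 to EFNA5 (425). The peak of both lists farthest from any protein-coding TSS, 2557 kb away, lay in the PCDH7 to ARAP2 desert at chr4:33484517-33484684 and was weak, with 10 tags in TRPS1-WT cells against 18 in TRPS1-MT cells. The TRPS1-MT peak lay at chr4:33484681-33484960, so the peaks overlapped only at their edges and the counts come from different summits.

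Per megabase other deserts came first, in a ranking chosen after the values had been seen and limited to deserts of at least 0.5 Mb. The mean over all deserts was 7.06 peaks of both lists per Mb. The short desert between ACTBL2 and PLK2 on chromosome 5 had 36.7 per Mb, that between KLF4 and ACTL7B on chromosome 9 had 34.2 (33 peaks, of 82 TRPS1-WT members) and that between DIPK2B and KRBOX4 on chromosome X had 33.1 (28 peaks of 55). In the last the highest tag counts were 893 in TRPS1-WT cells against 1292 in TRPS1-MT cells. At the other end, 11 of the 191 deserts of at least 1 Mb held no peak of both lists. Among them were those between ADGRL3 and TECRL on chromosome 4 (24 TRPS1-WT and 128 TRPS1-MT peaks), IRX1 and ADAMTS16 on chromosome 5 (20 and 83) and DPP10 and DDX18 on chromosome 2 (21 and 79). The end of chromosome 14 beyond TMEM121 was also one of the 11, and it counts as a desert because the immunoglobulin heavy chain segments there are not annotated as protein-coding.

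By chromosome, the density of TRPS1-WT members ran from 15.2 per Mb of desert on chromosome 21, 16.3 on chromosome 19 and 17.8 on chromosome X to 54.0 on chromosome 17. The share in both lists was lowest on chromosome 21 (7.05%, 3.98 to 12.2, 156 members) and highest on chromosome 22 (29.4%, 23.2 to 36.5, 177 members).

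Gene deserts are not without transcription units, and lncRNA genes covered 31.9% of desert sequence. Members lay inside them more often than that: 37.9% (36.4 to 39.4) of TRPS1-WT members in both lists, 35.1% (34.4 to 35.8) of those of 1 list, and 37.8% and 33.8% for the TRPS1-MT list. Peaks of both lists were also more often within 2 kb of a lncRNA TSS, at 5.37% against 2.73% in the TRPS1-WT list (2.64 points, 1.94 to 3.41) and 5.28% against 2.70% in the TRPS1-MT list (2.58 points, 1.91 to 3.33). They had another member of the same list within 10 kb more often as well, 67.8% against 58.0% in the TRPS1-WT list. Between 0.674% and 0.830% of each class lay within 100 kb of an assembly gap, where 2.47% of desert sequence lies.

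The lncRNA genes with the most peaks of both lists were named after their values had been seen. LINC00511, in the SOX9 desert of chromosome 17, had 18 of its 28 TRPS1-WT members in both lists. LINC02964, beside TRIB1, had 16 of 36, PVT1, beside MYC, had 15 of 24 in its part that counts as desert, and ENSG00000234810, beside USP24, had 14 of 42. Close to a lncRNA TSS, a pair 1675 bp from that of LINC01204 in the DIPK2B desert had 762 tags in TRPS1-WT cells against 1010 in TRPS1-MT cells (chrX:45365877-45366787). A pair 155 bp from the TSS of LINC01392, nearest to MDFIC, had 493 and 674 tags (chr7:114870907-114871601), and one 70 bp from that of LINC03061 had 518 and 417 tags (chr13:109924299-109924943). At LINC00511 a pair 207 bp from a TSS had 245 tags in TRPS1-WT cells against 973 in TRPS1-MT cells.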

How the data were processed

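Flag CUT&Tag of HCT116 cells gave 1 peak list per condition. Per the labels and methods, reads were aligned with Bowtie 0.12.8 and peaks called with MACS, and the submitters' processing notes also name HOMER. The methods name a MACS release before MACS2, while the files have the narrowPeak layout of MACS2, and no source used here names the control library. The labels name hg19 and hg38, and the positions fitted chromosome lengths of GRCh37 (hg19), which was used throughout. The authors deposited, per peak, a score, a fold enrichment (a ratio of tags to background), −log10 p-values and −log10 q-values and a summit offset. The smallest −log10 q was 4.00 in each list. Reads were not given, so depth is unknown.

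Peaks on chromosomes 1 to 22 and X were kept, which left out 113 TRPS1-WT and 158 TRPS1-MT peaks. Genes were those of GENCODE release 44 mapped to GRCh37. Summit tags were recovered from fold and −log10 p under the model of MACS2, in which fold is tags over background, each plus 1, and p is Poisson. A count was taken as whole within 0.01, and no member failed this. Consensus sequences were searched on both strands within 100 bp of summits and in windows centred 1000 bp away. Shares have Wilson, differences Newcombe, ratios of shares Katz log and medians binomial order-statistic intervals. On simulated data 100.0% of 20000 tag counts and of 300 desert placements were recovered, and intervals covered the true value in 94.8% to 95.8% of 1000 cases. The simulated tag counts followed the same MACS2 model, so their recovery cannot show that the model fits these lists. With 1 library per condition there was no test between conditions.

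Members and lists were chosen with earlier results of these data known. The regions named were the 10 strongest of both lists by −log10 p in the TRPS1-WT list, which need not be the 10 strongest in the TRPS1-MT list, and the 5 strongest of each list alone by −log10 p in that list, the farthest one, the 5 deserts with most peaks of each class, and of the 40 listed regulators those with a peak in both lists; other names were chosen after their values were seen, as said where they occur, and some items that the rule names are not reported here. Alternatives were other distance limits, gene sets, thresholds, overlaps and windows, and, added after seeing the data, bins of summit tags. Statistics used scipy 1.17.1 with numpy 2.4.6, tables pandas 2.3.3, sequence pysam 0.24.0 and plots matplotlib 3.10.9, under Python 3.11.15.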

Additional observations from a re-analysis of the deposited data

How the results depend on the processing

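Of 107 alternative values of 19 results, 41 stayed within the interval of the reported value (within 1.5 times for a count), 64 moved further and 2 reversed. The cause was not tested. Among the 19 were the CTCF ratios of both lists, which rest on few matches, and all their alternatives stayed within their wide intervals. Placing peaks by summit, leaving out members near assembly gaps, 50 bp windows and flanks 2000 bp away moved none beyond it. In what follows the TRPS1-WT value comes first and the TRPS1-MT value second, and the difference is desert minus other distal peaks in percentage points. With a 100 kb limit there were 33790 TRPS1-WT members, the density ratio was 0.597 and 0.688, 20.5% and 9.57% were in both lists and the difference was −6.915 and −4.575. With a 500 kb limit there were 8924 and 20620 members, the TRPS1-WT density ratio was 0.539, 16.45% and 7.003% were in both lists and the difference was −9.70 and −6.285. With all annotated genes, lncRNA genes included, there were 955 and 2307 members, the TRPS1-WT density ratio was 0.5205, the shares were 16.02% and 6.415% and the difference was −9.485 and −6.39.

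With −log10 q of at least 10 the shares were 34.8% and 11.3%, the difference −7.84 and −8.40, the median tags 37 and 51 in both lists and 18 and 22 in 1 list, and the AP-1 ratio 8.89 and 7.19. With an overlap of 50% of the narrower peak the shares were 14.75% and 6.66%, the difference −7.56 and −4.80, the median tags in both lists 24 and 34, and the median ratio of tags 1.34. With summits within 100 bp the shares were 9.08% and 4.18%, the difference −4.21 and −2.79, the median tags in both lists 23 and 32 and in the TRPS1-WT list alone 12. With equal numbers of strongest peaks the shares were 14.25% and 13.4%, and the TRPS1-MT difference −8.50.

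Within bins of summit tags (up to 11, 12 to 19, 20 to 39, 40 to 99, at least 100) the difference was −1.67, −2.88, −1.45, 2.04 and 1.16 in the TRPS1-WT list, the last 2 reversed with intervals that include 0. In the TRPS1-MT list it was −1.10, −1.70, −4.09 and, with at least 100 tags, −2.09. AP-1 in both lists minus 1 list was 1.48, 7.445, 9.335 and 12.1 points in the first 4 TRPS1-WT bins and 2.94, 3.75, 9.04, 15.7 and 5.80 points in the TRPS1-MT bins.

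The alternative that leaves out windows masked as repeats was not run: the reference carries no such mask. No library was left out: each condition had 1. No paired analysis was possible because each condition had 1 library.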
